A study of Mus musculus with 6 samples.

Results

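The small leucine-rich proteoglycans are secreted core proteins of the extracellular matrix, and 10 of their genes were examined here by name: Dcn, Bgn and Aspn of class I, Fmod, Lum, Prelp, Kera and Omd of class II, and Epyc and Ogn of class III. All 10 were among the 54532 genes of the deposited table, with 1 entry each. The cells were MC3T3-E1, a mouse pre-osteoblast line kept in culture, so 1 cell line stands for osteoblasts throughout. Every sample was induced in osteogenic medium, which holds β-glycerophosphate, ascorbic acid and dexamethasone. The 3 control samples received nothing more, and the 3 metformin samples also received metformin, a biguanide that lowers blood glucose, at 0.2 mM. RNA was sequenced after 3 days of induction; dose and time come from the study's text, since the sample labels give neither. The study describes biological replicates, and the labels do not say how the cultures were separated. Values are FPKM, the reads of a gene scaled by its length in kilobases and by library size. Differences are log2 fold changes of metformin minus control on the log2(FPKM + 1) scale, which shrinks changes of low genes, tested by limma-trend with Benjamini-Hochberg adjustment over the 12681 genes with a mean of at least 0.5 FPKM. A gene was called at an adjusted p-value under 0.05. Of the 10 members, 8 passed this filter, and Kera and Epyc had 0 reads in all 6 samples.

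Small leucine-rich proteoglycans share a horseshoe of leucine-rich repeats that lies along collagen fibrils and limits or orders their lateral growth. Most carry chondroitin, dermatan or keratan sulfate chains, which are assembled in the Golgi from activated sugars and sulfate. In bone, decorin and biglycan are the classic members, biglycan is needed for normal bone mass, and osteomodulin, also called osteoadherin, is a protein of mineralized matrix. Several members also bind transforming growth factor-β, bone morphogenetic proteins or cell surface receptors.

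Each library held between 18399861 and 22111790 reads, recovered from the FPKM. The 3 metformin libraries had Pearson correlations of 0.992 with each other across genes. Control replicates 2 and 3 had one of 0.988, while control replicate 1 had 0.960 and 0.952 with them. Control replicate 1 also deviated from the other controls by the GC content of the genes, the share of G and C in the longest transcript, with a Spearman correlation of -0.668 across genes. Results on the members are therefore given with and without this library, and with a correction for the GC trend.

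The family sits in 3 clusters and 1 lone locus of the mouse genome (GRCm38). On chromosome 10, Dcn (97479609 to 97518143), Lum (97565128 to 97572703), Kera (97606879 to 97613692) and Epyc (97644068 to 97682454) follow each other on the plus strand. On chromosome 13, Aspn (49544443 to 49567565), Omd (49582462 to 49592822) and Ogn (49608046 to 49624501) also lie on the plus strand, with 14896 bases between Aspn and Omd and 15223 between Omd and Ogn. These 3 genes lie within the span of Cenpp, a centromere protein gene on the opposite strand, whose exons share 7 bases with those of Aspn and 0 with those of Omd or Ogn. On chromosome 1, Prelp (133910304 to 133921414, minus strand) and Fmod (134037254 to 134048277, plus strand) are 115839 bases apart. Bgn is alone on chromosome X (73483602 to 73495933, plus strand).

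Neighbours in these clusters were called differently. The 250 bases before the RefSeq start are printed for Fmod and Bgn, which rose, and for the 3 neighbours on chromosome 13, of which only Omd was called. They come from RefSeq on GRCm38.p6, where 8 of the 10 members matched and Dcn and Lum did not. Capitals mark the TATA box TATAAA, the CAAT box CCAAT, the GC box GGGCGG, the Runx core ACCACA and the AP-1 site TGANTCA on either strand, and overlapping matches run together.
Fmod, chr1:134037004-134037253, plus strand: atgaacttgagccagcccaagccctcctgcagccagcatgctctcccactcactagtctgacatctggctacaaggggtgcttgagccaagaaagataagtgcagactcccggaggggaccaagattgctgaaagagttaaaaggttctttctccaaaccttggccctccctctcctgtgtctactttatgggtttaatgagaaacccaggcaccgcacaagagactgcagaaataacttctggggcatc
Bgn, chrX:73483351-73483600, plus strand: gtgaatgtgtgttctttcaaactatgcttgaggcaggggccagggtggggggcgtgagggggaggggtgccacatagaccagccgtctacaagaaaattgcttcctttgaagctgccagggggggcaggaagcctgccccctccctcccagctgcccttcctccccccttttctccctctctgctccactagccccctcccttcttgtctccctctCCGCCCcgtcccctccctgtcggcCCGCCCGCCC
Aspn, chr13:49544193-49544442, plus strand: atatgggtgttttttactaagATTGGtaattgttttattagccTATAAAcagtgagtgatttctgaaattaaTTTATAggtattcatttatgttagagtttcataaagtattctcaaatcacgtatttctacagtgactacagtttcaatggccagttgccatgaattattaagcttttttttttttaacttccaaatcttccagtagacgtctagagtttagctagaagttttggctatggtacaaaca
Omd, chr13:49582212-49582461, plus strand: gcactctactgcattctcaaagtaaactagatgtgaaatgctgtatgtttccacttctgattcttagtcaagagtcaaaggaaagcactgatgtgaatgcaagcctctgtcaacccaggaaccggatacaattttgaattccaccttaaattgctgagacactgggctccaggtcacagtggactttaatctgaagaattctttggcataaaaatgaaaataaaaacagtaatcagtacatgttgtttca
Ogn, chr13:49607765-49608014, plus strand: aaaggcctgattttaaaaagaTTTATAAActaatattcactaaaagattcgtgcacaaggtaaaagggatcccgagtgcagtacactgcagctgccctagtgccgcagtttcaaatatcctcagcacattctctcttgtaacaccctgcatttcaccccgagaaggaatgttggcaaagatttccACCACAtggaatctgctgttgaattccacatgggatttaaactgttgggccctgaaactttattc
The Bgn window holds 3 GGGCGG matches close to the start, and those of Fmod and Omd hold none of the 5 motifs. Aspn and Ogn each hold 2 TATAAA matches far from the start, at -207 and -178 in Aspn and, overlapping, at -229 and -227 in Ogn. Aspn also holds 1 CCAAT match, at -229, and Ogn alone of these 5 holds ACCACA, at -65. Over the 32851 windows of the same length in the table, 12.4% hold TATAAA, 33.9% CCAAT, 32.7% GGGCGG, 14.1% ACCACA and 6.75% TGANTCA. GC content was 64.4% for Bgn, 51.2% for Fmod, 38.4% for Omd, 42% for Ogn and 30% for Aspn. The window of Prelp, the uncalled neighbour of Fmod, is not printed. It has 55.6% GC and 1 CCAAT match, at -15. These matches describe letters in a window and were not tied to the changes below.

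Fibromodulin, biglycan, asporin and osteoglycin were the abundant members. On the FPKM of the deposited gene lengths, Fmod was highest with 537 ± 51.1 FPKM (SD, n = 3) in control and 938 ± 33.1 with metformin, and Bgn followed with 411 ± 44.5 and 571 ± 14.5. Both ranked among the 57 most abundant of the genes tested. The deposited length of Bgn is 6099 bases, the union of the exons of 8 annotated transcripts, while its principal coding transcript has 2419 bases. For Dcn the lengths are 5838 and 1758 bases, whereas for the other members tested they differ by a ratio of at most 1.06. Per length of the principal transcript, Bgn had 1036 ± 112 FPKM in control and was above Fmod, at 569 ± 54.2, in all 6 samples. This rescaling assumes that all reads come from that transcript, and it leaves every fold change of a gene as it was. On that scale the order in control was Bgn, Fmod, Aspn, Ogn, Dcn, Prelp, Lum and Omd, and of the 7 pairs of neighbours in the order 5 overlapped in their sample ranges, all those below Fmod. With metformin the order was Bgn, Fmod, Aspn, Ogn, Prelp, Lum, Dcn and Omd, with 0 of the 7 pairs overlapping. On that scale the mean of Dcn thus stood above those of Prelp and Lum in control, at 59.3 ± 21.04, and below them with metformin, at 31.3 ± 1.32. In control the rescaled range of Dcn overlapped those of its neighbours in the order, and in control replicate 3 Dcn was below Prelp, at 41.4 and 42.8. This swap depends on the rescaling. On the deposited lengths Dcn was below Prelp and Lum in every sample, with control means of 17.85, 42.8 and 30.3 FPKM.

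**Figure D1:**
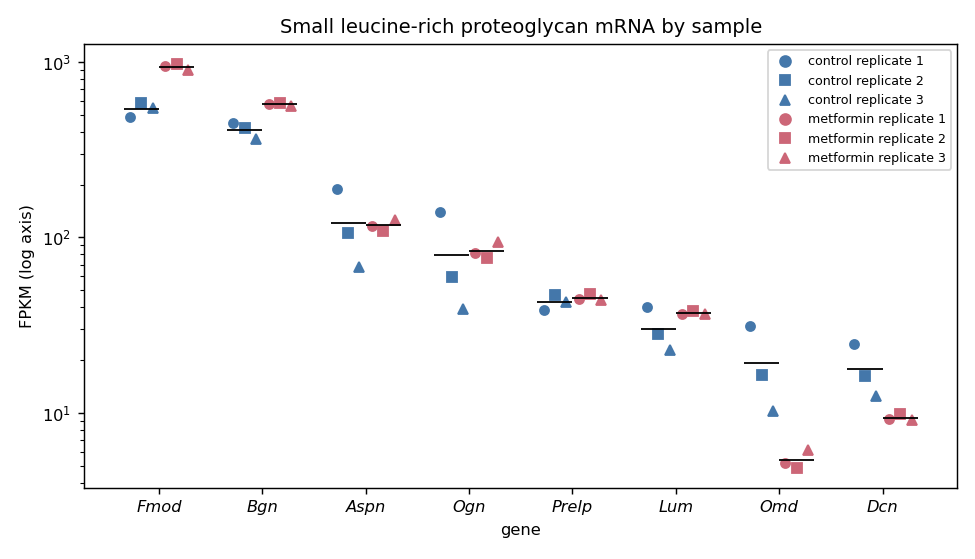
FPKM of the 8 members with reads, on a log axis, in each control (blue) and metformin (red) sample, with circles, squares and triangles for replicates 1, 2 and 3 and a bar for each group mean. Fmod and Bgn lie above all controls and Omd and Dcn below them, while control replicate 1 is the highest control for 6 of the 8 genes.

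With metformin, 2 members were called higher (Fmod and Bgn) and 2 lower (Omd and Dcn), while Aspn, Ogn, Lum and Prelp were not called. Over all genes tested, 13.2% were called higher and 9.28% lower, 22.5% in all. With the GC correction the same 4 members were called in the same directions, where 16.3% of all genes were called higher and 19.1% lower. The median log2 fold change of the 8 members was 0.18, against 0.0053 over all genes. The groups did not overlap for the same 4 members, 2 in each direction, where 23.6% of all genes tested lay entirely higher with metformin and 20.5% entirely lower, 44.1% in all.

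Fmod encodes fibromodulin, a keratan sulfate proteoglycan that binds collagen I and steers its crosslinking. It had 483, 584 and 544 FPKM in control and 943, 968 and 903 with metformin. Every metformin sample was well above every control. The mean rose to 1.75 times the control, a log2 fold change of 0.81 (standard error, SE, 0.11, limma-trend adjusted p = 0.00290). The call held whichever of the 6 samples was left out, with a log2 fold change of 0.73 without control replicate 1, and the change was 0.76 with the GC correction.

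Bgn encodes biglycan, a chondroitin or dermatan sulfate proteoglycan of bone matrix. Its values were 450, 421 and 362 FPKM in control and 571, 585 and 556 with metformin, again without overlap but with a smaller gap. The log2 fold change was 0.48 (SE 0.11, limma-trend adjusted p = 0.0241), or 1.39 times the control mean. Without control replicate 1 it was 0.55 (adjusted p = 0.00336), and with the GC correction 0.42 (adjusted p = 0.0256). The call was lost without control replicate 2 (adjusted p = 0.0531) and without metformin replicate 1, 2 or 3 (adjusted p of 0.108, 0.114 and 0.0906).

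Omd encodes osteomodulin, a keratan sulfate proteoglycan of mineralized tissue. It had 31.3, 16.5 and 10.2 FPKM in control and 5.20, 4.90 and 6.16 with metformin. All metformin samples were below the lowest control, although the controls themselves spread over a 3.05-fold range. The mean with metformin was 0.28 times that of control, a log2 fold change of -1.53 (SE 0.35, limma-trend adjusted p = 0.0239), the largest change among the 8 members tested. Without control replicate 1 it was -1.13 (adjusted p = 0.00419), and with the GC correction -1.39 (adjusted p = 0.00496). The call was lost without control replicate 2 (adjusted p = 0.0690) and without metformin replicate 1, 2 or 3 (adjusted p of 0.0840, 0.0910 and 0.0676). At the lowest, 232 reads stood behind an Omd value.

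Dcn encodes decorin, the proteoglycan with a single chain that binds collagen fibrils and transforming growth factor-β. It had 24.8, 16.2 and 12.5 FPKM in control and 9.23, 9.90 and 9.19 with metformin, so the groups did not overlap and the nearest values lay at 12.5 and 9.90. The mean with metformin was 0.53 times the control, with a log2 fold change of -0.80 (SE 0.22, limma-trend adjusted p = 0.0457). Without control replicate 1 the change was -0.55 (adjusted p = 0.00834), and with the GC correction -0.69 (adjusted p = 0.00649). The call was lost without control replicate 2 (adjusted p = 0.103) and without metformin replicate 1, 2 or 3 (adjusted p of 0.136, 0.122 and 0.135). With no filter on low values, which tests 24801 genes, Dcn, Bgn and Omd had adjusted p-values of 0.105, 0.104 and 0.0648, and Fmod had 0.0361. In these bulk samples, fewer cells that express a gene and less of its RNA per cell cannot be told apart.

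Asporin, osteoglycin and lumican had control ranges that took in the metformin values. Aspn, a relative of decorin with a run of aspartates and a known brake on transforming growth factor-β, had 190, 106 and 67.7 FPKM in control and 116, 109 and 125 with metformin. Its log2 fold change of 0.074 had a 95% interval from -0.74 to 0.89. Ogn, which encodes osteoglycin or mimecan, had 140, 59.2 and 39.2 FPKM in control and 81.3, 76.0 and 94.4 with metformin. The change of 0.27 had an interval from -0.74 to 1.29. Lum, which encodes the keratan sulfate proteoglycan lumican, had 39.95, 28.1 and 22.8 FPKM in control and 36.8, 38.0 and 36.7 with metformin, a change of 0.32 with an interval from -0.13 to 0.78. In all 3 genes control replicate 1 lay above every metformin sample and the other controls lay below every one. Without control replicate 1, Lum was called higher, with a log2 fold change of 0.54 (adjusted p = 0.00421 by limma-trend), and so was Ogn, with 0.78 (adjusted p = 0.0137). Aspn then had 0.46 (adjusted p = 0.0811). With the GC correction in all 6 samples, Lum had 0.31 (adjusted p = 0.0726), Ogn 0.41 (adjusted p = 0.343) and Aspn 0.27 (adjusted p = 0.401). Leaving this library out brought the members called higher to 4, with 2 lower, where 23.4% of all genes were then called higher and 20.4% lower. Without control replicate 3 the signs of Aspn and Ogn turned, to -0.28 and -0.13, neither called.

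Prelp, the basic family member that links collagen to heparan sulfate, had the narrowest interval of the 8. It had 38.6, 47.1 and 42.8 FPKM in control and 44.9, 47.6 and 43.8 with metformin, and the ranges overlapped. Its log2 fold change was 0.087, with a 95% interval from -0.15 to 0.33 (adjusted p = 0.583 by limma-trend), and without control replicate 1 it was 0.016. Kera and Epyc, known from cornea and from growth plate cartilage, had 0 reads in every library. A count of 0 allows up to 3 reads, which is at most 0.0721 FPKM for Kera and 0.0642 for Epyc and covers counting error only.

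**Figure D2:**
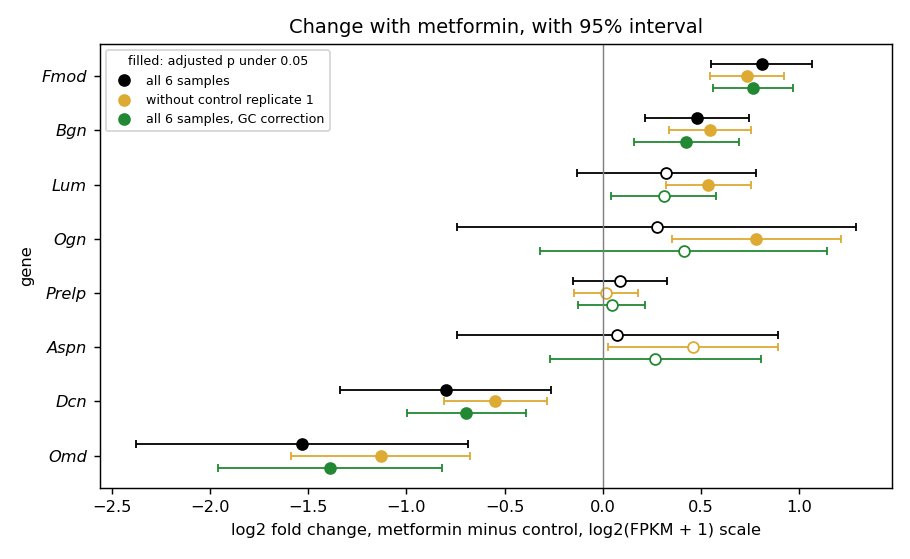
Log2 fold changes of the 8 members tested (metformin minus control, log2(FPKM + 1) scale) with 95% intervals from limma-trend, for all 6 samples (black), without control replicate 1 (yellow) and with the GC correction (green); filled points have an adjusted p-value under 0.05. Fmod, Bgn, Dcn and Omd are filled in each of the 3 fits, and Lum and Ogn are filled only without control replicate 1.

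The members split by how far the controls spread. Fmod, Prelp and Bgn had coefficients of variation of 9.52%, 9.92% and 10.8% among controls, while Lum, Dcn, Aspn, Omd and Ogn had 29.0%, 35.5%, 51.5%, 55.9% and 67.3%. With metformin the 8 members had between 1.94% and 12.2%, and each spread less than in control. The same holds of the genes tested as a whole, whose median SD on the log2 scale was 0.191 in control and 0.0657 with metformin. The 5 members that spread most are also those of low GC content, from 34.4% for Aspn to 41.9% for Lum, and Bgn, Fmod and Prelp had 51.2%, 53.7% and 53.8%. On the log2 scale control replicate 1 exceeded the mean of the other controls by 1.52 for Ogn, 1.20 for Omd, 1.154 for Aspn, 0.76 for Dcn and 0.64 for Lum. Among the 765 genes tested with 35% to 40% GC the median of this deviation was 0.430, and Ogn, Omd and Dcn, which fall in this range, stood above it. Control replicate 3 was the lowest control for 6 of the 8 members. The GC correction took the deviation of control replicate 1 from 1.52 to 1.10 for Ogn and from 1.20 to 0.776 for Omd. It brought that of Fmod from -0.223 to -0.0235, while that of Bgn grew from 0.202 to 0.272. The part of GC content in the spread of these members beyond that trend was not tested.

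**Figure D3:**
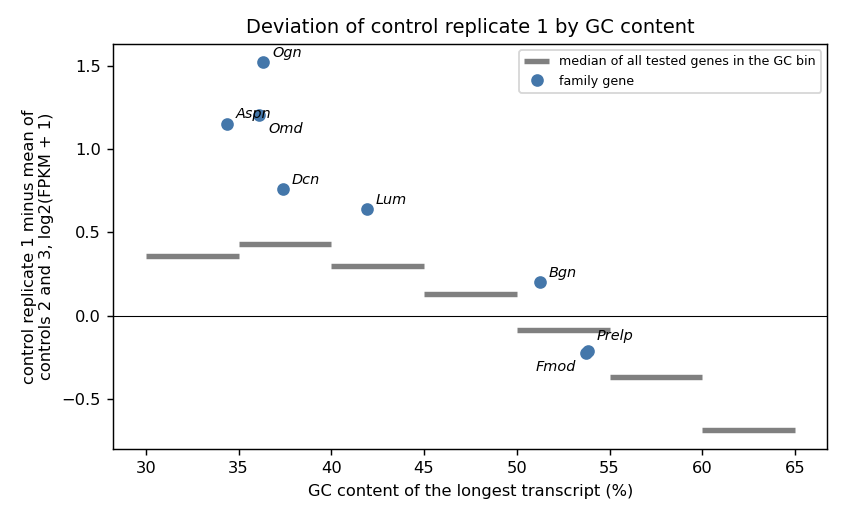
Difference between control replicate 1 and the mean of the other controls, in log2(FPKM + 1), against the GC content of the longest transcript, for the 8 members (points) and as the median of all genes tested in each GC bin (grey bars; the outermost bars stand for all genes under 35% and over 60%). Ogn, Omd and Aspn lie between 1.154 and 1.52, above the grey bars near 0.4, and Fmod and Prelp lie just under 0.

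Ratios of neighbouring genes were taken within each sample, a comparison chosen after the values were seen. A shift of a library that strikes both genes alike leaves such a ratio as it was. Omd and Ogn have 36.1% and 36.3% GC. The ratio of Omd to Ogn was 0.223, 0.278 and 0.261 in control and 0.0639, 0.0645 and 0.0652 with metformin, so the controls lay closer together in the ratio than in either gene. It was 3.92 times lower with metformin, a log2 change of -1.97 (SE 0.10). The ratio of Omd to Aspn was 0.165, 0.156 and 0.151 in control and 0.0446, 0.0449 and 0.0492 with metformin, 3.403 times lower. Omd was thus lower relative to both of its neighbours in every metformin sample. The ratio of Aspn to Ogn was 1.35, 1.79 and 1.73 in control and 1.43, 1.44 and 1.32 with metformin, and there the groups overlapped.

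On chromosome 10, the ratio of Dcn to Lum was 0.622, 0.579 and 0.546 in control and 0.251, 0.261 and 0.251 with metformin, 2.29 times lower. On chromosome 1, Fmod and Prelp have 53.7% and 53.8% GC, and their ratio was 12.5, 12.4 and 12.7 in control and 21.01, 20.4 and 20.6 with metformin, a log2 change of 0.72 (SE 0.017). The 4 ratios other than Aspn to Ogn did not overlap between the groups. Each had p = 0.1 by a two-sided exact permutation test, the smallest that 3 samples against 3 allow, and 0.125 after Benjamini-Hochberg adjustment over the 5 ratios, while Aspn to Ogn had p = 0.3 by the same exact test. Without control replicate 1 the log2 changes were -2.06 for Omd to Ogn, -1.73 for Omd to Aspn, -1.15 for Dcn to Lum and 0.72 for Fmod to Prelp.

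**Figure D4:**
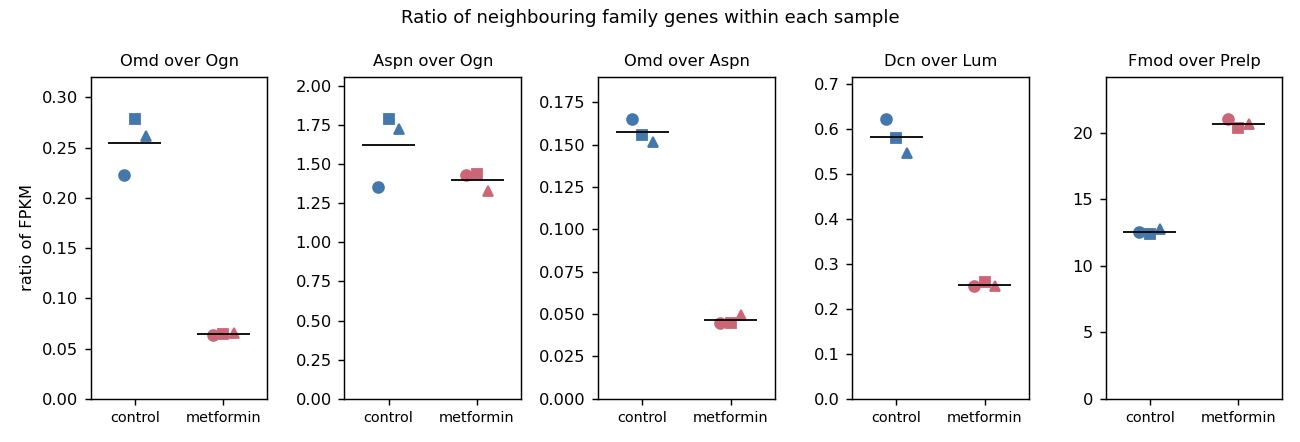
Ratio of FPKM between genes of the same cluster in each control (blue) and metformin (red) sample, with circles, squares and triangles for replicates 1, 2 and 3 and a bar for the group mean; each panel has its own axis from 0. The ratios of Omd to Ogn, Omd to Aspn and Dcn to Lum are lower in every metformin sample, that of Fmod to Prelp is higher, and that of Aspn to Ogn overlaps.

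Other genes within these clusters had little RNA. Cenpp, across the chromosome 13 cluster, had 0.854, 0.576 and 0.377 FPKM in control and 1.57, 1.61 and 2.42 with metformin, a log2 fold change of 0.84 (adjusted p = 0.0129 by limma-trend). It thus rose while Omd, which lies inside it, fell, and it had at most 121 reads in a library. Gm15851, an antisense gene that shares 350 exon bases with Prelp, had at most 1 read. The library kit was one that does not mark strand, so reads over shared bases could belong to either gene. No transcript of another gene was near-identical to a member with reads, apart from that of Gm15851.

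Summed over the 10 genes, on the scale of the principal transcripts, the family had 2170, 1993 and 1715 FPKM in control and 2757, 2810 and 2696 with metformin. The sum was higher in all metformin samples, and most of it came from 2 genes. Bgn made up 52.2% to 53.3% of the sum in control and 52.0% to 52.5% with metformin. Fmod went from 23.6%, 31.1% and 33.6% in control to 36.3%, 36.5% and 35.5%. Dcn went from 3.80%, 2.71% and 2.42% to 1.11%, 1.17% and 1.13%, and Omd from 1.44%, 0.827% and 0.598% to 0.189%, 0.174% and 0.229%. These shares sum to 100 in each sample, so a rise of one lowers the others. They rest on the rescaling, which assumes that all reads come from the principal transcript. On the deposited lengths Bgn had a mean share of 32.7% in control and 31.6% with metformin. Fmod had 43.2% and 51.9% there, so which of these genes led depends on the scale.

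Among 8 further genes of the family, 4 were tested. Of these 4, 0 were called by limma-trend in either direction, 1 (Podnl1) had an unadjusted p-value under 0.05, and 0 were called by voom on the recovered reads. Tsku (tsukushi) had 10.8 ± 1.44 FPKM in control and 11.8 ± 0.50 with metformin, and Podn (podocan) had 4.52 ± 0.52 and 4.62 ± 0.33. Podnl1 had 8.40 ± 1.75 and 5.81 ± 0.19 FPKM, without overlap, and a log2 fold change of -0.45 (adjusted p = 0.0656). It was called lower without control replicate 1 (adjusted p = 0.00207) and with the GC correction (log2 fold change -0.51, adjusted p = 0.00177). Ecm2, next to Aspn on chromosome 13, had 0.62 ± 0.24 and 0.58 ± 0.049 FPKM. Optc, next to Prelp, had at most 15 reads, and Nyx, Chad and Chadl were also under the limit.

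The chains of the family are made by linker enzymes, polymerases, epimerases and sulfotransferases. Of 26 genes for chondroitin and dermatan sulfate assembly and its sulfate supply, 22 were tested. Metformin samples were higher in 5 and lower in 3, where 13.2% and 9.28% of all genes tested were so called. The other 14 had no call, and the median log2 fold change of the list was 0.094. Papss2, an enzyme that makes the active sulfate donor, went from 2.03 ± 0.46 to 4.89 ± 0.38 FPKM (log2 fold change 0.97, adjusted p = 0.00285 by limma-trend). Its relative Papss1 rose by 0.44, Chst7, a 6-O-sulfotransferase, by 0.65, Chst14, the dermatan 4-O-sulfotransferase, by 0.47, and Pxylp1, the phosphatase of the linker xylose, by 0.48. The lower genes were also sulfotransferases: Chst15 (-0.56), Chst3 (-0.49) and Chst11 (-0.44). The polymerase genes Chsy1 and Chpf2 and the epimerase genes Dse and Dsel were not called, with log2 fold changes from -0.068 to 0.080. The polymerase gene Chpf had 33.8 ± 8.72 and 42.3 ± 2.56 FPKM, without overlap and not called (log2 fold change 0.34, limma-trend adjusted p = 0.256), and it was called higher with the GC correction (adjusted p = 0.0473). Xylt1 had 0 reads in every sample, and Xylt2, the other xylosyltransferase, had 10.4 ± 2.31 and 11.2 ± 0.84 FPKM. Without metformin replicate 1, 2 or 3 a single gene, Papss2, was called higher, and 0, 1 and 0 genes were lower; without control replicate 1 they were 7 and 6.

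Of 11 genes for keratan sulfate, core fucose and tyrosine sulfation, which modify class II members, 7 were tested and 1 was called. The share called over all genes tested was 22.5%. B4galt4, a galactosyltransferase of keratan sulfate, went from 6.07 ± 0.49 to 3.62 ± 0.25 FPKM (log2 fold change -0.61, adjusted p = 0.00422 by limma-trend). Its call held whichever of the 6 samples was left out. The tyrosine sulfotransferase genes Tpst1 and Tpst2 had 39.1 ± 4.57 and 35.2 ± 4.52 FPKM in control and 38.0 ± 0.93 and 33.0 ± 2.14 with metformin. B3gnt7 and Chst4 had 0 reads, Chst1 and Chst5 were near 0, and the keratan sulfate sulfotransferase gene Chst2 had 5.08 ± 1.00 and 6.48 ± 0.27 FPKM, without overlap but not called (log2 fold change 0.31).

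A list of proteases that trim or cut the core proteins, which also holds the protease enhancer Pcolce, has 10 genes. Of these, 7 were tested, 1 was higher and 1 lower. For all genes tested these shares were 13.2% and 9.28%. Mmp13, a collagenase, went from 531 ± 68.9 to 199 ± 4.55 FPKM (log2 fold change -1.40, adjusted p = 0.000415 by limma-trend). Adamts5, an aggrecanase, rose from 1.42 ± 0.055 to 3.36 ± 0.12 FPKM (log2 fold change 0.85, adjusted p = 0.000648). Both calls held whichever of the 6 samples was left out. Bmp1, which removes the propeptide of biglycan and osteoglycin, had 16.7 ± 1.86 and 17.04 ± 0.17 FPKM. Pcolce, its enhancer, had 188, 248 and 213 FPKM in control and 256, 253 and 238 with metformin, and was not called. Without control replicate 1 the lower genes were 2, Mmp14 being added (adjusted p = 0.00555).

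Of 12 collagen chains, among them those that the family binds, 11 were tested. They came out higher for 6 and lower for 1, where 13.2% and 9.28% of all genes tested were so called. The other 4 were uncalled, and the median log2 fold change of the chains was 0.57. Col12a1, a chain of a fibril-associated collagen, went from 42.9 ± 10.1 to 171 ± 12.1 FPKM (log2 fold change 1.99, adjusted p = 0.000426 by limma-trend). Col1a1 rose by 0.93, Col5a1 by 0.91, Col6a3 by 0.79, Col5a2 by 0.69 and Col1a2 by 0.57, and Col3a1 was lower (log2 fold change -0.33, adjusted p = 0.0465). Col6a1, Col6a2, Col11a1 and Col2a1 were not called, and Col14a1 was near 0. The count of higher chains was 3 without metformin replicate 1 and 2 without metformin replicate 2. Col3a1 kept its call only without control replicate 1 (adjusted p = 0.00939) and lost it in the other 5 fits (adjusted p from 0.0591 to 0.192).

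Of 18 growth factors and receptors known to bind members of the family, 14 were tested, 3 were higher and 0 lower. The matching shares of all genes tested were 13.2% and 9.28%. Bmp4, which biglycan binds, went from 15.6 ± 1.48 to 58.9 ± 0.30 FPKM (log2 fold change 1.85, adjusted p = 8.1e-05 by limma-trend). Tgfb3 rose by 0.79 and Lrp1, a receptor that takes up decorin, by 0.81. Tgfb1 had 39.4 ± 14.6 FPKM in control and 26.8 ± 1.04 with metformin, with overlap and no call (log2 fold change -0.46), and without control replicate 1 it was called lower (-0.81, adjusted p = 0.000271). That fit gave 6 higher genes, and the fits without metformin replicate 1 or 2 gave 1, Bmp4. Tgfbr1, Tgfbr2, Egfr, Tlr2 and Tlr4 were not called, and Erbb4 had 0 reads.

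**Figure D5:**
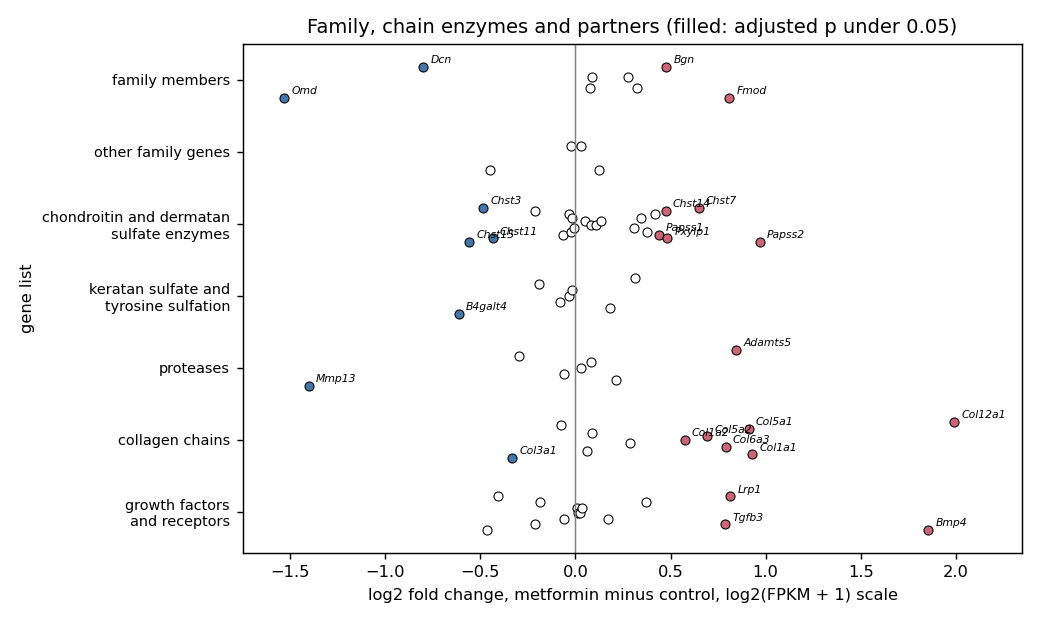
Log2 fold changes (metformin minus control, log2(FPKM + 1) scale) of the tested genes of the family and of 6 lists of related genes, 1 point a gene, red for called higher, blue for called lower and white for not called; the vertical place within a list carries no value. Collagen chains lie mostly to the right, up to 1.99 for Col12a1, while the chain enzymes spread on both sides of 0 and Omd and Mmp13 are furthest left.

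Marker lists were read for the identity of the cells. Of 11 osteoblast markers 10 were tested, 2 were higher (Col1a1 and Dlx5) and 3 lower (Ibsp, Spp1 and Dmp1). Across all genes tested the shares were 13.2% higher and 9.28% lower. Ibsp, Spp1 and Dmp1 kept their calls whichever of the 6 samples was left out, while Col1a1 and Dlx5 kept theirs in 3 of these 6 fits. With no filter on low values, Col1a1, Dlx5 and Spp1 had limma-trend adjusted p-values of 0.186, 0.0625 and 0.198. Ibsp, the bone sialoprotein gene, went from 814 ± 150 to 265 ± 4.41 FPKM. Runx2 had 30.5 ± 3.19 and 26.7 ± 0.84 FPKM, and Sp7 41.6 ± 5.22 and 53.3 ± 1.02, neither called. The groups did not overlap for either gene, with Runx2 lower and Sp7 higher in the metformin samples. With the GC correction Sp7 was called higher (limma-trend adjusted p = 0.0195), and Runx2 was not called (adjusted p = 0.0780). Alpl had 3.16 ± 0.60 and 2.71 ± 0.29, Bglap 8.04 ± 5.23 and 5.37 ± 0.83, and Bglap2 14.1 ± 5.29 and 8.86 ± 1.92, with overlap and no call. Phex, under the limit, had 0.49 ± 0.19 and 0.17 ± 0.026. Without control replicate 1, limma-trend called Bglap (-0.91, adjusted p = 0.00314) and Bglap2 (-0.80, adjusted p = 0.0304) lower. That fit called Sp7 higher (0.27, adjusted p = 0.0230). The 10 chondrocyte markers summed to 36.8 to 48.6 FPKM in control and 35.8 to 39.4 with metformin, mostly from Sox9 and Col2a1, with 1 of 5 tested called (Col10a1, lower by limma-trend, log2 fold change -1.91) and Acan near 0. The 4 tendon markers summed to 11.5 to 24.0 and 16.2 to 18.5, with 0 of 2 called and Tnmd at 0. The 9 adipocyte markers summed to 7.88 to 12.3 and 8.68 to 9.79, with 0 of 2 called and Adipoq and Plin1 near 0. The 7 blood and macrophage markers summed to 24.6 to 36.8 and 34.5 to 38.2, with 2 of 3 called lower (Cd68 and Cd14), Ptprc, Csf1r and Adgre1 near 0 and Tyrobp at 0. The third tested, Lyz2, makes up most of that sum and lay higher with metformin without overlap, at 18.0 ± 5.53 and 27.2 ± 2.06 FPKM (log2 fold change 0.61, limma-trend adjusted p = 0.0771), and was called higher without control replicate 1 (0.83, adjusted p = 0.00188). The 4 muscle markers summed to 1.20 to 2.02 and 2.34 to 2.80, with 0 of 1 called, and the 5 endothelial markers never exceeded a sum of 0.156. Among the chondrocyte, tendon and adipocyte markers, limma-trend without control replicate 1 also called 4 genes lower. These were Sox9 (-0.42, adjusted p = 0.00190), Col2a1 (-0.32, adjusted p = 0.0199), Scx (-0.53, adjusted p = 0.00566) and Cebpa (-0.40, adjusted p = 0.0156). Hapln1 was called higher in that fit (0.73, adjusted p = 0.00627). The part of the marker genes in the changes of the family was not tested.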

How the data were processed

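Table values were deposited by the authors as FPKM, a unit the file does not name. It was read from the values, since each value times the gene length is a whole multiple (within 0.001 reads) of 1 step per sample for 100% of values above 0. The reads so recovered have effective library sizes proportional to median-of-ratios factors. The authors tested with DESeq2. The submitters' processing notes list Bowtie 0.12.2 and the builds mm8 and mm9, but 53499 of 54532 genes have the coordinates of GENCODE M21 (GRCm38), which was used for lengths, overlaps and GC content. The counting tool and its strand setting are not given in the sources used here. The table had 0 further columns holding per-sample values.

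Groups and replicate numbers come from the sample labels. Limma 3.58.1 in R 4.3.3 (lmFit, eBayes with an intensity trend) was run on log2(FPKM + 1) of the 12681 genes with a mean of at least 0.5 FPKM, with 6 samples and the group alone in the design. P-values measure the spread between these samples. The fit was tested on simulated reads of the 12681 genes, where it called 179 of 200 changed genes and 21 unchanged ones. The simulation gave every gene and both groups the same dispersion, with no GC trend and no deviating library. It therefore cannot tell how the fit performs with the unequal spread and the deviating control replicate 1 of these data. The GC correction subtracted a spline (5 degrees of freedom) of GC content fitted to every library's deviation from the mean of the 6 samples. Metformin libraries were included, so the correction also removes any difference between the groups that follows GC content. It recentres each library too, and the median log2 fold change over all genes went from 0.0053 to -0.039. Near-identical transcripts were sought at 95% identity over 200 bases (BLAST+ 2.17.0). The members and lists were chosen with earlier results of these data known. All members are named; of longer lists, up to 3 called genes in each direction, and others named were picked after their values were seen. Ccn4 was read as Wisp1, its name in the table. A further gene of the osteoblast list was left out of its counts and is not reported here. Plots were made in matplotlib 3.10.9.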

Additional observations from a re-analysis of the deposited data

How the results depend on the processing

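Fmod kept its call under every alternative run that used an adjusted p-value alone. With a pseudocount of 0.1 or scaling by total reads, the counts of calls among the members and the 6 lists of related genes stayed as in the report. Over all genes the calls went from 1670 higher and 1177 lower to 1638 and 1165 with that pseudocount, and to 1598 and 1330 with total reads. Counts in the marker lists were not recomputed. Requiring a log2 fold change of at least 1 in size left 0 members higher and 1 lower (Omd), 0 chain enzymes in either direction, 0 keratan and tyrosine sulfation genes lower, 0 proteases higher, 1 collagen chain higher and 0 lower, and 1 signalling gene higher. Without the filter on low values, 1 member was higher and 0 lower, 4 chain enzymes were higher and 1 lower, and 3 collagen chains were higher and 0 lower. At least 10 reads in every sample left 0 collagen chains lower. With the GC correction, 1 other family gene was lower, 8 chain enzymes were higher, 2 sulfation genes, 2 proteases and 2 signalling genes were lower. The GC correction without control replicate 1, chosen after seeing the data, gave 5 members higher, with 2 lower, 1 other family gene lower, 8 chain enzymes higher and 5 lower, 2 sulfation genes and 2 proteases lower, and 5 signalling genes higher and 3 lower. Over all genes that fit called 2712 higher and 3111 lower.

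Leaving out each sample in turn gave 1 to 4 members higher and 0 to 2 lower, 0 to 1 other family genes lower, 1 to 7 chain enzymes higher and 0 to 6 lower, 0 to 1 sulfation genes higher, 1 to 2 proteases lower, 2 to 7 collagen chains higher and 0 to 2 lower, and 1 to 6 signalling genes higher and 0 to 1 lower. Over all genes these fits called from 938 higher and 495 lower, without metformin replicate 1, to 2969 and 2590, without control replicate 1. Aspn and Ogn reversed to -0.28 and -0.13 without control replicate 3. Over the fits that left out 1 sample, Aspn ranged from -0.28 to 0.46 and Ogn from -0.13 to 0.78. Fits that leave out a sample have fewer samples, and the cause of other changes was not tested.

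Same-numbered samples did not deviate together (correlations of -0.053, 0.00027 and -0.055). The labels do not say whether the numbers pair the samples. These correlations cannot decide it, since control replicate 1 deviates with GC content. A fit with a replicate block called 1161 genes higher and 698 lower over all genes. In it 1 member was higher and 1 lower, 3 chain enzymes were higher and 1 lower, and 0 collagen chains were lower; Bgn and Dcn had adjusted p-values of 0.0688 and 0.0511. The block with the GC correction gave 1 other family gene lower, 7 chain enzymes higher and 1 signalling gene lower. With 3 samples a group, genes at few reads limit what can be called.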
